A study of Sus scrofa with 8 samples.

Results

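Lipocalins are small secreted proteins with a cup-shaped barrel that holds one greasy molecule, such as a retinoid, a steroid, an odorant or a bacterial siderophore. In the nose they are secreted by glands and supporting tissue into the mucus that covers the olfactory epithelium, where pig odorant-binding and salivary lipocalins are known as carriers of odorants and pheromones. The genes described here are the 6 of 25880 pig genes in the count table whose symbol is PAEP, LCN2, SAL1, PTGDS, APOD or RBP4. All 6 had a symbol and passed the filter on low counts. The genes were selected on their read counts in the knockout comparison, with earlier results in view, so their differences between genotypes are given as a description and no test is drawn from them.

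The samples were 8 libraries of olfactory epithelium from newborn piglets of unstated strain, sex and litter, each from a separate piglet and with no treatment named. Wild-type piglets 5, 9, 12 and 23 were set against CFTR knock-out piglets 6, 18, 20 and 21, which lack a functional copy of the chloride and bicarbonate channel of cystic fibrosis. The series concerns the molecular pathology of smell loss in this disease. Levels are CPM (counts scaled to library size) after TMM scaling, which adjusts for library composition. Per-piglet values are listed in the order 5, 9, 12, 23 for the wild-type and 6, 18, 20, 21 for the knockout. Coordinates are those of the deposited table, whose build none of the sources used here states.

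Libraries held 30836904 to 43253395 counts on pig genes. CFTR stood at 34.03 to 56.6 CPM in wild-type libraries, against 5.24 to 8.37 CPM with the knockout. The tissue label was checked on 11 markers of mature olfactory neurons, all detected, which summed to 3905 to 6035 CPM in wild-type libraries and, without overlap, 6197 to 7246 CPM in the knockout; their part in the results was not tested. Knockout piglet 18 stood apart in connective tissue genes: 11 stromal markers summed to 36968 CPM there and to 1632 to 5313 CPM in the other libraries, and 7 bone markers to 7002 CPM against 213 to 641 CPM. Reads on the Y-linked genes EIF1AY and KDM5D were present in wild-type piglets 9 (1388 reads) and 12 (1640 reads) and at 0 in the other 6 libraries. In bulk tissue, fewer cells of a type and less RNA per cell cannot be told apart.

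The family spanned a wide range of levels. Per kilobase of counted length, LCN2 averaged 58.6 ± 15.6 CPM in wild-type piglets (SD, n = 4), APOD 23.9 ± 11.99, SAL1 1.90 ± 0.900, PTGDS 1.75 ± 0.778, RBP4 1.37 ± 0.790 and PAEP 0.656 ± 0.369. These means placed LCN2 above 95.3% of the 17175 tested genes in wild-type level per kilobase, APOD above 84.7%, SAL1 above 27.8%, PTGDS above 26.8%, RBP4 above 23.4% and PAEP above 14.8%. The place of PTGDS is uncertain, since only 10.1% to 16.6% of the reads at its locus were assigned to it in wild-type libraries. LCN2 and APOD did not overlap in the 4 wild-type libraries and both lay above the remaining members, whereas SAL1, PTGDS, RBP4 and PAEP overlapped each of their neighbours in the order. In knockout piglets LCN2 (40.2 ± 7.97), APOD (23.8 ± 2.91) and SAL1 (3.46 ± 3.44 CPM per kilobase) again came first, followed by RBP4 (2.53 ± 0.439), PTGDS (1.77 ± 0.859) and PAEP (0.00833 ± 0.00556).

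Within a genotype, all 6 varied between piglets more than the median tested gene. The within-group SD of log2(CPM + 0.05) was 1.37 for SAL1, larger than in 98.8% of tested genes, 0.74 for RBP4 (90.8%), 0.73 for PAEP (90.7%), 0.65 for PTGDS (87.7%), 0.47 for APOD (78.1%) and 0.33 for LCN2 (64.9%). The median over all tested genes was 0.23. Low counts add to this spread in the rarer members.

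**Figure D1:**
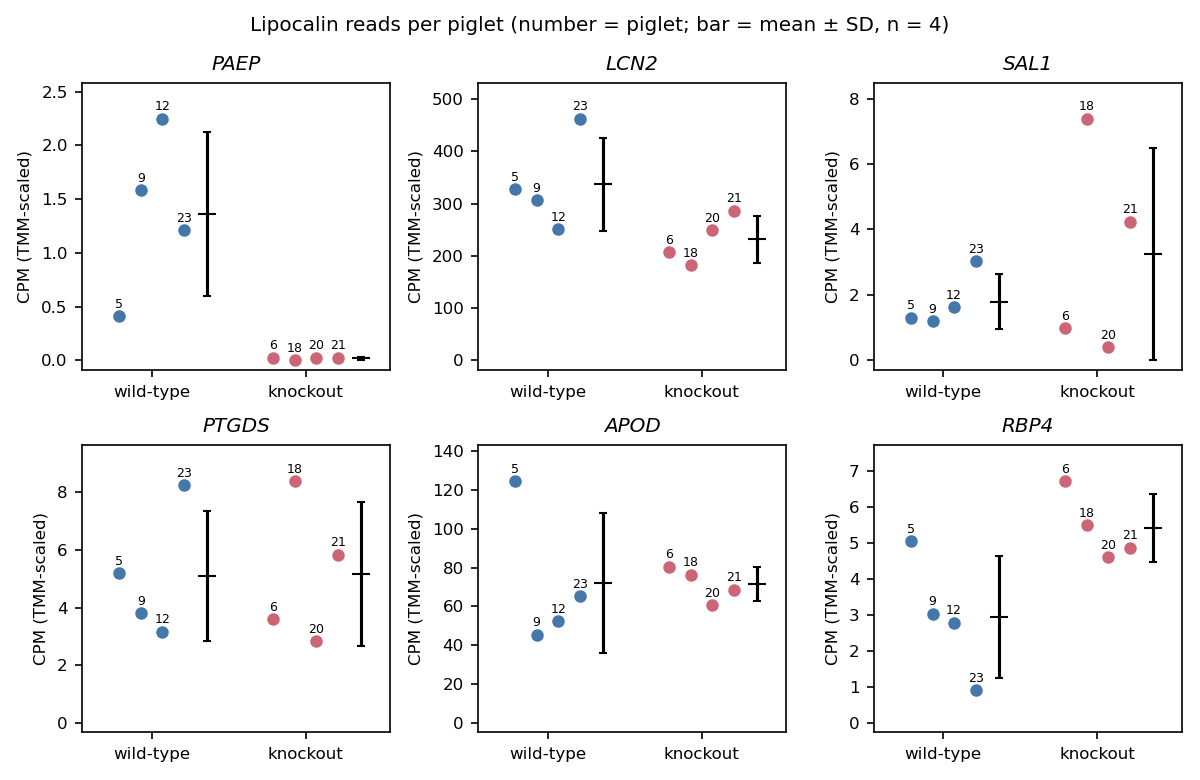
Level of each of the 6 lipocalins in CPM (linear axis from 0) in the 4 wild-type (blue) and 4 knockout (red) piglets, numbered by piglet, with the mean and SD in black. PAEP was at 0 to 0.0237 CPM in the knockout and 0.409 to 2.25 CPM in the wild-type, and the groups overlap in the other 5 genes.

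PAEP encodes the whey protein beta-lactoglobulin of pig milk and is known in other species as the uterine protein glycodelin. Its 7 exons lie on an unplaced scaffold, at 1881644 to 1887177 on the minus strand (ENSSSCG00000040042), and share no exon base with another gene of the table. Read counts were 17, 50, 93 and 52 (wild-type) and 1, 0, 1 and 1 (knockout). In CPM these were 0.409, 1.58, 2.25 and 1.21 against 0.0228, 0, 0.0228 and 0.0237, and the count of 0 in piglet 18 allows a level of up to 0.0836 CPM. Every wild-type library thus lay above every knockout library, although the wild-type level itself was low.

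The transcript was nearly missing from the knockout libraries. Summed over each group and scaled by library size, 212 wild-type reads faced 3 knockout reads, a 74.4-fold lower knockout level with an exact 95% interval of 25.1 to 364 that covers counting error only. The log2 fold change was -6.02 ± 0.72 (SE) in edgeR, whose size depends on the prior count at such low reads. Wild-type piglets 5 and 23, which like all knockout piglets had no Y-linked read, stood at 0.409 and 1.21 CPM, and their 69 reads gave a 45.1-fold difference (14.8 to 224). Wild-type piglets 9 and 12, with Y-linked reads, stood higher at 1.58 and 2.25 CPM. With those reads as a covariate the log2 fold change was -5.27, and in the 6 libraries without them -5.29.

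Genes beside PAEP with many reads did not share its pattern. On one side, LCN9, named by position, had 1 to 3 reads in every library and the glycosyltransferase relative GLT6D1, also named by position, 0 to 2. These reads are too few to show such a pattern. On the other side, the mitochondrial ribosomal protein gene MRPS2 had 1288 to 1555 reads in wild-type and 1154 to 1600 in knockout libraries. Other milk genes were low: the beta-casein gene CSN2 had at most 4 reads and the alpha-lactalbumin gene LALBA at most 1 read in any library. The casein genes CSN1S1 and CSN3 reached 13 reads (wild-type piglet 23) and 22 reads (knockout piglet 21, 0.520 CPM). All 7 milk protein genes together summed to 0.222 to 0.442 CPM in wild-type libraries and 0.182 to 0.851 CPM with the knockout. PAEP alone exceeded that sum in wild-type piglets 9, 12 and 23.

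LCN2, or neutrophil gelatinase-associated lipocalin, binds bacterial siderophores and so keeps iron from microbes. It was the most abundant member, on chromosome 1 from 268609633 to 268621997 on the plus strand (ENSSSCG00000005638). The wild-type levels were 328, 306, 251 and 463 CPM, and those of the knockout 207, 183, 249 and 286 CPM. Of the knockout libraries 3 lay below every wild-type library, and piglet 21 lay above wild-type piglet 12. The mean was 337 ± 89.8 CPM in the wild-type against 231 ± 45.8 CPM, a log2 fold change of -0.54 ± 0.20 (SE). That fold change was -0.35 without wild-type piglet 23 and -0.77 with Y-linked reads as a covariate. The LCN2 gene model shares 479 exon bases with C1H9orf16 on the same strand and 396 with CIZ1 on the opposite strand, so reads in these stretches are uncertain and the level per length may be understated.

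RBP4 carries retinol from the liver and other tissues to cells that use vitamin A. It lies on chromosome 14 from 105036961 to 105044712 on the minus strand (ENSSSCG00000010479), free of overlap with another gene. Its level was 5.05, 3.04, 2.78 and 0.908 CPM (wild-type) and 6.72, 5.49, 4.60 and 4.87 CPM (knockout). Only wild-type piglet 5 reached into the knockout range. The log2 fold change was 0.88 ± 0.42 (SE), 0.58 without wild-type piglet 23 and 1.27 without wild-type piglet 5.

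SAL1, salivary lipocalin, binds the steroid pheromones of boars. It lies on chromosome 1 from 253638015 to 253642866 on the minus strand (ENSSSCG00000005474). Levels were 1.30, 1.20, 1.62 and 3.03 CPM (wild-type) and 0.980, 7.39, 0.410 and 4.23 CPM (knockout). The knockout group held both the highest and the lowest libraries, an 18-fold range. The log2 fold change of 0.86 ± 0.77 (SE) was 0.06 without knockout piglet 18, whose stromal and bone markers stood apart, and -0.07 without it and wild-type piglet 5. The part of those markers in the SAL1 level was not tested.

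PTGDS makes prostaglandin D2 and also carries retinoids and other lipids. It lies on the same scaffold as PAEP, from 885009 to 891229 on the minus strand (ENSSSCG00000040080), and 77.2% of its exon bases are shared with an unnamed gene on the same strand (ENSSSCG00000032480). Levels were 5.19, 3.80, 3.17 and 8.26 CPM (wild-type) and 3.599, 8.39, 2.83 and 5.84 CPM (knockout). The group ranges nearly coincided, with a log2 fold change of 0.01 ± 0.40 (SE).

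Most reads at this locus were assigned to the unnamed gene, at 19.1 to 48.4 CPM, and PTGDS received 10.1% to 16.6% of the 2 together. Added up, the locus stood at 51.2, 22.9, 24.4 and 53.5 CPM (wild-type) and at 26.7, 51.6, 24.05 and 54.3 CPM (knockout). The libraries fell into 4 at 51.2 to 54.3 CPM and 4 at 22.9 to 26.7 CPM, with both genotypes equally represented in each. The log2 fold change of the sum was 0.04 ± 0.37 (SE). How reads shared by both gene models were treated is stated in none of the sources used here, so the level of PTGDS alone is uncertain.

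**Figure D2:**
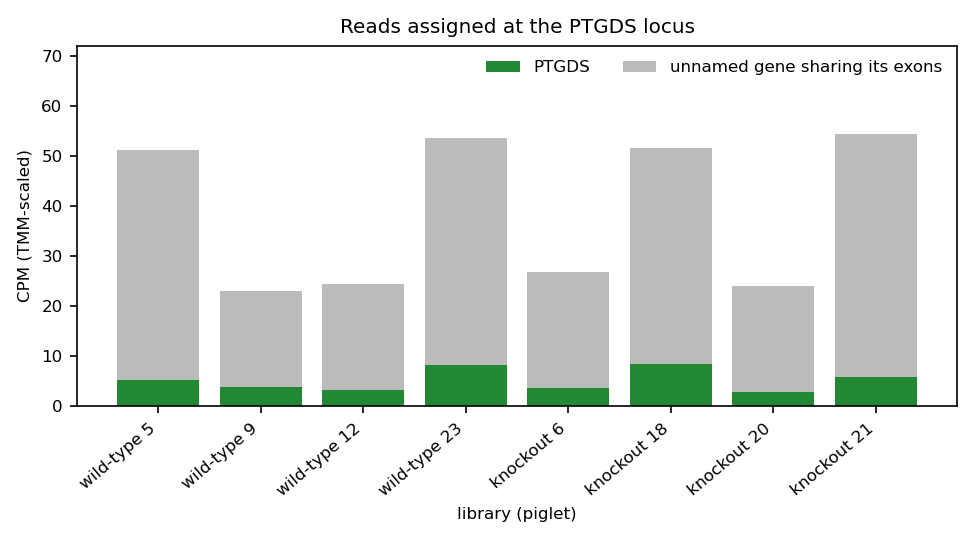
Stacked bars of reads assigned to PTGDS (green) and to the unnamed gene that shares its exons (grey), in CPM from 0, for each piglet. The sum was 51.2 to 54.3 CPM in wild-type piglets 5 and 23 and knockout piglets 18 and 21, and 22.9 to 26.7 CPM in the others.

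APOD, apolipoprotein D, carries arachidonic acid and steroids and is known from glia and fibroblasts. It lies on chromosome 13 from 132514026 to 132557866 on the minus strand (ENSSSCG00000011831). Levels were 124, 45.3, 52.2 and 65.1 CPM (wild-type) and 80.5, 76.2, 60.6 and 68.6 CPM (knockout). Wild-type piglet 5 alone exceeded the knockout range, and the group means were 71.8 ± 36.1 and 71.5 ± 8.74 CPM. The log2 fold change was -0.01 ± 0.29 (SE), -0.41 with Y-linked reads as a covariate and 0.39 without wild-type piglet 5. Markers of the cells known for APOD were not highest in that piglet: glial markers (12 of 12 matched) summed to 612 CPM there and 622 CPM in wild-type piglet 12, and stromal markers (11 of 11) to 4999 CPM there and 36968 CPM in knockout piglet 18. Piglet 5 was the highest of the 8 libraries in endothelial (6 of 8 matched, 398 CPM), leptomeningeal and perineurial (9 of 10, 382 CPM), nasal serous (11 of 12, 1036 CPM), respiratory secretory (12 of 12, 1684 CPM) and smooth muscle and pericyte markers (7 of 7, 793 CPM). Their part in the APOD level was not tested.

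Across the 6 genes, 3 log2 fold changes were positive and 3 negative, with a median of 0.00 against 0.01 over all 17175 tested genes. Groups did not overlap in 1 member, PAEP, against 5.81% of tested genes (3.36% with the knockout lower and 2.45% with it higher). The edgeR quasi-likelihood test at an adjusted p of 0.05 called 0 of the 6, against 0.00582% of tested genes, and 2 members had an unadjusted p under 0.05, as did 11.2% of tested genes (5.4% with the knockout higher and 5.8% with it lower). DESeq2, which called 1.41% of its genes, and limma with sample quality weights, which called 0.064%, each called PAEP alone among the members. Since the members were chosen with this contrast known, these counts are a description.

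**Figure D3:**
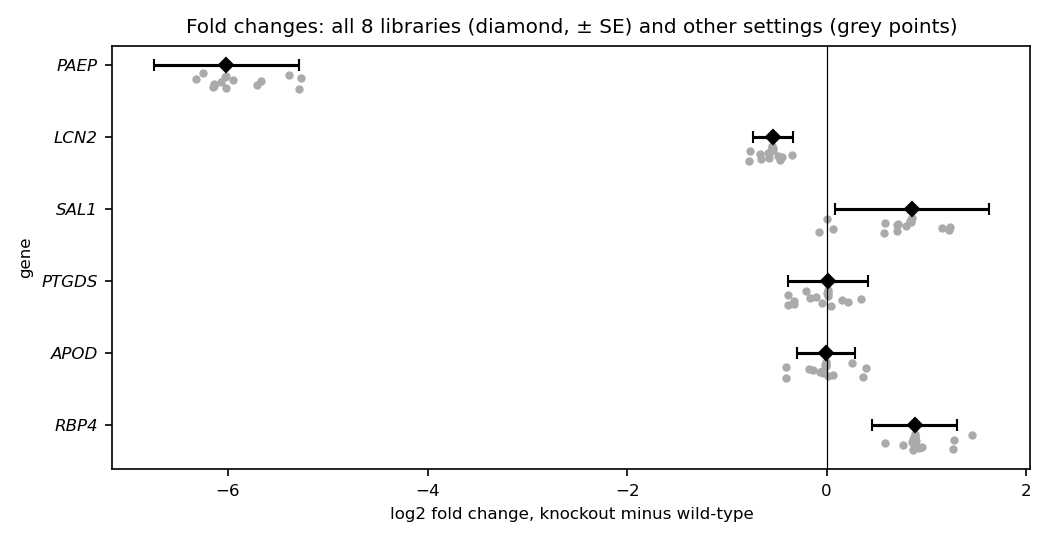
Log2 fold change of each lipocalin, knockout minus wild-type, from edgeR with all 8 libraries (diamond, bar ± SE) and under the other settings (grey points). PAEP lay between -6.33 and -5.27 in every setting that gave a value, LCN2 below 0 and RBP4 above 0 in all settings run, and the others on both sides of 0.

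The members did not form one block across libraries. Of 15 pairs, the 5 with PAEP were not pooled, because PAEP separates the genotypes. SAL1 and PTGDS had the strongest relation of the remaining 10, with Pearson r = 0.859 (exact permutation p = 0.00615, adjusted 0.0923 over 15 pairs) and Spearman rho = 0.833 (p = 0.0154, adjusted 0.163, n = 8). It did not pass the adjustment, and r was 0.712 without knockout piglets 18 and 20, the most distant in SAL1, and 0.863 for deviations from the group means. LCN2 and RBP4 ran in opposite directions with r = -0.791 and rho = -0.619 (n = 8). These pooled values take in their opposite log2 fold changes between genotypes (-0.54 and 0.88), so no test is drawn from this relation. That relation was weaker, at r = -0.352, without wild-type piglet 23 and knockout piglet 18 and so rested on them, and r was -0.630 for deviations from the group means. APOD and RBP4 had r = 0.392 (exact permutation p = 0.314, adjusted 0.900) but rho = 0.762 (p = 0.0368, adjusted 0.184, n = 8), with r = 0.448 without wild-type piglets 5 and 9.

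Among 13190 named genes of at least 1 CPM, the profiles most like that of PAEP over the 8 libraries belonged to the small nucleolar RNA gene SNORD79 (r = 0.982), the ATP-binding cassette protein gene ABCF2 (0.971), the mitochondrial ribosomal protein gene MRPL47 (0.951), the endothelial transcription factor gene ETV2 (0.951), C19orf12 (0.945) and STK11IP (0.944). These are descriptions, since each of them also separates the genotypes: SNORD79 was 1.66 ± 0.191 CPM in the wild-type against 0.828 ± 0.0893 CPM, far closer together than for PAEP. Nearest to LCN2 were NECAB2, named by position (r = 0.946), and CFAP96 (0.945), nearest to SAL1 ORAI1 (0.956), SLC38A4 (0.944) and YIPF2 (0.941), and nearest to PTGDS RIDA (0.936), NUP42 (0.934) and ERGIC3 (0.931). Nearest to APOD were NCK1 (0.980), SUMF1 (0.977) and MCCC1 (0.973), and nearest to RBP4 DYNC1I1 (0.967), ZMYM4 (0.955) and MID2 (0.953), each over 8 libraries.

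Other lipocalin genes place the 6 in their family. The scaffold of PAEP and PTGDS holds 9 named lipocalin genes among its 92 genes. Of 16 further lipocalins listed, 11 were matched and 4 were tested, and edgeR called none of them (1 had an unadjusted p under 0.05, against 11.2% of all tested genes, and DESeq2 called 0). LCN15, on that scaffold, was more abundant per kilobase than any of the 6, at 100.3 ± 50.02 CPM in the wild-type against 160.4 ± 73.4 CPM, with a log2 fold change of 0.68 ± 0.45 (SE). AMBP, the precursor of alpha-1-microglobulin and bikunin, had 0.96 ± 0.40, the complement component C8G 0.08 ± 0.22 and the sphingolipid carrier APOM -0.15 ± 0.24. In AMBP the groups did not overlap, with the knockout higher, as in 2.45% of tested genes.

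OBP, odorant-binding protein, named by position on chromosome X, had most of its reads in few piglets. Its reads were 1, 52, 9 and 2 (wild-type) and 4, 4213, 0 and 170 (knockout). OBP2B, also named by position, had 0, 5, 1 and 2 reads in the wild-type and 2, 216, 1 and 58 in the knockout libraries. Both were highest in knockout piglets 18 and 21, the same piglets that were highest in SAL1, and neither passed the filter on low counts. The reads were 0 for OBP in knockout piglet 20, which allows up to 0.0684 CPM.

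**Figure D4:**
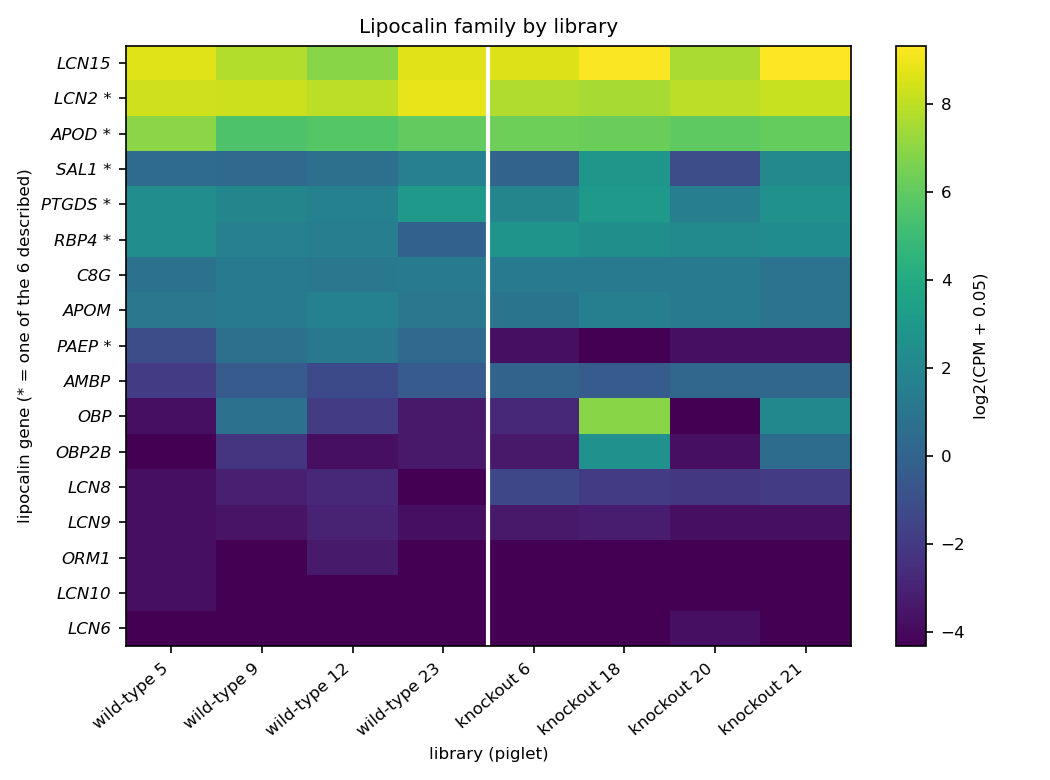
Heat map of log2(CPM + 0.05) for 17 lipocalin genes (rows, the 6 described ones starred) in 8 libraries (columns, wild-type left of the white line). PAEP is dark in all 4 knockout libraries, while OBP and OBP2B are bright in knockout piglets 18 and 21.

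Receptors take lipocalins up from fluids. All 6 listed were tested and edgeR called 0, with 2 higher and 1 lower at an unadjusted p under 0.05, where 5.4% of all tested genes were higher and 5.8% lower. STRA6, the membrane receptor for RBP4, was 22.03, 24.1, 22.3 and 21.4 CPM (wild-type) and 16.3, 11.7, 18.8 and 14.3 CPM (knockout). The groups did not overlap, with the knockout lower, as in 3.36% of tested genes. For STRA6 edgeR gave -0.56 ± 0.14 (log2 fold change ± SE, adjusted p = 0.342, DESeq2 adjusted p = 0.0407). BSG, a proposed APOD receptor, had -0.07 ± 0.08, the LCN2 receptor SLC22A17 0.07 ± 0.11 and the LCN1 receptor LMBR1L 0.26 ± 0.10. LRP2, or megalin, which takes up many lipocalins, was picked out with its values known and had 0.71 ± 0.21 (edgeR adjusted p = 0.371). Its groups did not overlap either, with the knockout higher, as in 2.45% of tested genes.

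Of 25 genes of retinoid handling, 21 were tested and edgeR called 0, with none higher and 2 lower at an unadjusted p under 0.05 (5.4% and 5.8% of all tested genes) and a median log2 fold change of -0.09. CRABP2, which carries retinoic acid to its nuclear receptors, was 98.4, 99.2, 78.2 and 112 CPM (wild-type) and 59.7, 66.9, 74.3 and 72.4 CPM (knockout). The groups did not overlap (log2 fold change -0.50 ± 0.12, edgeR adjusted p = 0.326, DESeq2 adjusted p = 0.0237), with the knockout lower, as in 3.36% of tested genes. Its relative CRABP1 had -0.21 ± 0.18, the retinaldehyde dehydrogenase ALDH1A1 -0.68 ± 0.37 and the retinaldehyde reductase DHRS3 0.32 ± 0.19.

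Prostaglandin, iron and lipid pathways held no edgeR call either, and the counts at an unadjusted p under 0.05 that follow stand beside 5.4% of all tested genes higher and 5.8% lower. Of 12 prostaglandin genes tested, 1 was higher and 2 were lower at an unadjusted p under 0.05 (DESeq2 called 0), with HPGD, which breaks prostaglandins down, at 0.54 ± 0.18, the E2 synthase PTGES at -0.12 ± 0.30, PTGES3 at -0.25 ± 0.09 and the exporter ABCC4, named by position, at 0.09 ± 0.12 (log2 fold change ± SE). Of 15 genes of iron and siderophore defence, 1 was higher at an unadjusted p under 0.05, the iron-binding protein lactoferrin (LTF, 1.27 ± 0.39), picked out with its values known, and DESeq2 called 0. The ferritin subunits FTH1, named by position, and FTL had -0.31 ± 0.15 and 0.07 ± 0.11, the iron transporter SLC11A2 -0.16 ± 0.17 and the transcription factor CEBPD 0.11 ± 0.22. Of 10 lipid carrier genes, 1 was higher at an unadjusted p under 0.05, the cholesterol exporter ABCG1, at 241 ± 63.4 CPM in the wild-type against 396 ± 55.4 CPM (0.72 ± 0.19, edgeR adjusted p = 0.349, DESeq2 adjusted p = 0.0354). In ABCG1 the groups did not overlap, with the knockout higher, as in 2.45% of tested genes. APOE, clusterin (CLU) and APOA1 had -0.34 ± 0.24, -0.14 ± 0.20 and -0.31 ± 0.22.

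**Figure D5:**
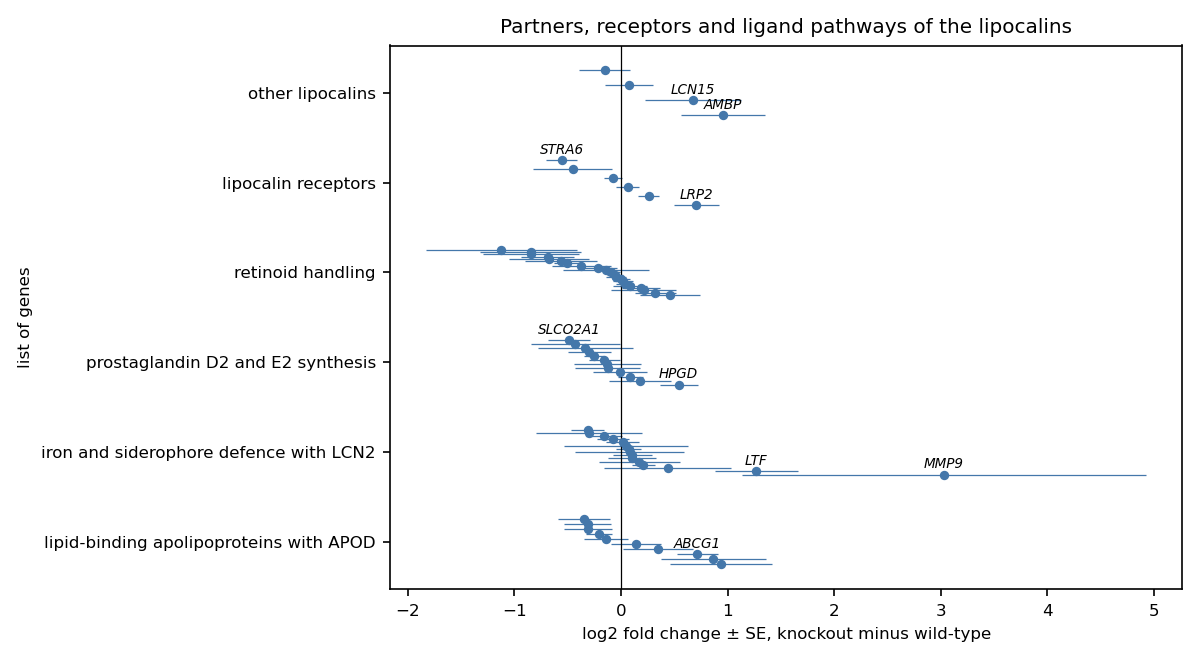
Log2 fold change ± SE from edgeR, knockout minus wild-type, of 68 tested genes in 6 lists of partners, receptors and ligand pathways, with some genes labelled. STRA6 lay at -0.56 and ABCG1 at 0.72, and none of the 68 was called by edgeR.

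Markers of secretory and other cells were read beside the members. Bowman gland markers (12 of 13 matched) summed to 948 to 2477 CPM in the wild-type against 1625 to 2809 CPM, and nasal serous gland markers (11 of 12) to 197 to 1036 and 249 to 441 CPM. Respiratory secretory markers (12 of 12) summed to 468 to 1684 and 486 to 647 CPM, with the club cell gene SCGB1A1 at 0.111 CPM or less. Neutrophil markers (9 of 9), which bear on LCN2, summed to 18.7 to 42.8 and 29.1 to 59.8 CPM, with S100A8 at 0.251 to 3.56 CPM. In none of these 4 lists did the sums of the 2 genotypes separate, and their part in the lipocalin levels was not tested.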

How the data were processed

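Olfactory epithelium of 8 newborn piglets was profiled by RNA-seq. The deposited values are raw gene counts made by the authors, in a table that per the file headers has the layout of featureCounts. The submitters' processing notes list STAR 2.4.0, Subread 1.5.0-p3 with featureCounts, HTSeq, DESeq2 and FastQC without saying what each did. Strand and treatment of overlapping genes are not given in the sources used here. Rows that name no pig gene took at most 0.00182% of reads and were left out. Symbols came from a table of gene names (14857 genes) or, for 1679 genes, from at least 50% mutual overlap with RefSeq genes of assembly Sscrofa11.1; of 12777 known genes so matched, 94.3% received their own symbol.

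Counts were fitted with edgeR 4.0.16 (R 4.3.3) by the quasi-likelihood test with TMM and its default filter (17175 genes), Benjamini-Hochberg adjustment at 0.05, genotype as the only factor and SE from the F statistic. On simulated data for this comparison (17175 genes), it called 28% of genes changed 1.5-fold, 58% of those changed 2-fold, 88% of those changed 4-fold and 96% of those changed 8-fold. Unchanged genes made up 8.16% of calls. The simulation changed 50 genes at each fold, none of them at the lowest levels, and held no shift across a whole library. Its rates therefore need not hold for the real libraries. Correlations used log2(CPM + 0.05), with exact permutation over 40320 orders, two-sided. DESeq2 1.42.0 and limma 3.58.1 were alternatives. Counting intervals are exact (95%), and a count of 0 allows 3 counts. Named genes were the 6 members, CFTR, the 4 genes of highest level per kilobase in each list, and the genes most like each member; a gene outside this rule is said to be picked out, and some genes are not reported here. The members and lists were chosen with earlier results of these data known.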

Additional observations from a re-analysis of the deposited data

Results flagged for a closer look

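In OBP, named by position, 1 library lay far from the other 3 in both groups. In the wild-type group piglet 9, at 1.65 CPM, was separated from the next by 0.881 of the group's range, and in the knockout group piglet 18, at 117 CPM, by 0.966, both above Dixon's 95% critical value for 4 samples. Of 23 gene and group combinations checked in the lipocalin family these were the 2 that passed, and chance flags about 1 in 20. The summed bone markers reached 7002 CPM for knockout piglet 18 and 641 CPM for wild-type piglet 9, the highest of their groups, and their part in OBP was not tested.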

How the results depend on the processing

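CFTR was the 1 gene called over the whole table in the reported analysis. DESeq2 called 246 genes, limma with sample quality weights 11, edgeR without knockout piglet 18 and wild-type piglet 5 together 2, and edgeR in the 6 libraries with no Y-linked read, an alternative chosen after seeing the data, 0. Leaving out 1 library at a time gave 0 to 16 calls, 16 without wild-type piglet 12 and 0 without knockout piglet 6 or 20. Of the 68 related genes, 0 were called in every edgeR and limma setting run and 3 by DESeq2, which called 1.41% of all its genes. At an unadjusted p under 0.05, edgeR had 6 higher and 5 lower, against 5.4% and 5.8% of all tested genes. PAEP was called by DESeq2 (adjusted p = 1.67e-06), limma (0.0107) and edgeR after leaving out wild-type piglet 5 (0.0140), wild-type piglet 12 (0.0489) or piglets 5 and 18 together (0.0216). Its adjusted p was 0.0611 to 0.443 in the other edgeR settings (0.0871 as reported), and a filter at a mean of 1 CPM removed it. PAEP passed the default filter through its wild-type reads alone. Since PAEP was chosen with this contrast known, these calls are a description and no support is drawn from them. PAEP, LCN2 and RBP4 kept their sign in all settings that gave a value, SAL1 in 15 of 16, APOD in 11 of 16 and PTGDS in 8 of 17. Without division by length, the wild-type order of SAL1, PTGDS and RBP4 was 5, 3 and 4. No paired analysis was possible because the piglet numbers of the groups have none in common. With 3 reads in the knockout group, depth limits the size of the PAEP difference.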

Other observations

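LCN8, a lipocalin on the scaffold of PAEP known from the epididymis, was picked out after its values were seen. It had 1, 2, 4 and 0 reads (wild-type, order as above) and 15, 8, 8 and 9 reads (knockout). The groups did not overlap, with the knockout higher, as in 2.45% of tested genes, but the counts were too low for the filter and the gene was not tested. MMP9, a protease that binds LCN2 and likewise picked out with its values known, was 333 CPM in knockout piglet 18, 33.3 CPM in wild-type piglet 9 and 0.524 to 6.19 CPM in the other 6 libraries.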
